A study of Mus musculus with 52 samples.

Results

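The genes of DNA replication and mitosis were followed through the brain of mice that lack the microRNA gene Mir146 and of their wild-type controls. A set of 40 was taken by name from the 48526 gene IDs in each processed table. It held 4 G1/S cyclins and kinases, 10 genes of replication origins and forks, 2 of nucleotide synthesis, 8 mitotic cyclins and kinases, 6 of the spindle checkpoint and anaphase, 8 of the kinetochore and spindle, and 2 chromosome markers of cycling cells. Pttg1 was left out of the set because it lies close to Mir146, and its values are given apart from the rest.

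A cell that divides loads helicases onto replication origins in G1, fires them in S phase under E- and A-type cyclins, and enters mitosis under B-type cyclins with Cdk1. Most of these genes are switched off together when a cell leaves the cycle, through repressor complexes that bind E2F sites and the cell cycle homology region in their promoters. In the embryonic cortex the dividing cells are radial glia and intermediate progenitors along the ventricle, whereas in the adult brain division continues mainly in the dentate gyrus of the hippocampus, the subventricular zone, and glial precursors.

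Poly-A RNA was sequenced from 52 libraries in 14 groups. Whole cortex was taken at E14 from 5 Mir146 knockout (KO) and 4 wild-type (WT) samples, and amygdala, frontal cortex and hippocampus at P30 from 4 KO and 4 WT samples each. At P60 there were 4 KO and 3 WT amygdala, 4 KO and 3 WT frontal cortex, and 2 KO and 3 WT hippocampus samples. The labels give no strain, no way in which the allele was made and no cell type in which it acts. They call the cortical region frontal and the later age P60, while the study's design text names sensory cortex, P6 and E14.5. That text has the mice come from different mothers, but the labels tie no library to a litter and do not say which regions share an animal, so the p-values measure the spread between these samples.

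The recovered reads per library ran from 8079912 to 9469214 at E14, from 2933026 to 8141105 at P30 and from 5322181 to 7379353 at P60. The Mir146 transcript was at 0 in every library except 1 WT hippocampus library at P30, which held 1 read, so these libraries cannot check the genotype. By Xist and Y-linked reads, 2 of 5 KO and 3 of 4 WT libraries at E14 came from females. In each P30 region these were 3 of 4 KO and 1 of 4 WT libraries. With sex as a covariate, 0 of the cell cycle genes were called between KO and WT at any age. Of the E14 libraries, KO 4 and KO 5 stood apart in the genes described here. At P30, WT hippocampus 3 had a summed level of 5590 over 8 choroid plexus genes, against 42.63 to 1200.8 in the other hippocampal libraries. WT amygdala 3 had the highest sums of endothelial and pericyte genes (616.55) and of microglial genes (337.54) among the P30 libraries. Counts and the median at E14 are given with and without KO 4 and KO 5. Counts of genes called between regions at P30 are given with and without WT hippocampus 3 and WT amygdala 3. Differences of single genes between KO and WT are given with all libraries. All levels are in the authors' normalised units, a CPM on an effective library size, unless CPM of the recovered reads (scaled to the plain library total) is named.

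At E14 the 40 genes together took 0.572% ± 0.0718 (SD, n = 4) of the reads of WT cortex and 0.536% ± 0.156 (SD, n = 5) of KO cortex. After birth their share lay between 0.0151% and 0.0270% in every library. Per kilobase of exon merged over isoforms, the highest WT levels at E14 were Mki67 (157), Pcna (79.1), Top2a (57.3), Rrm2 (52.4) and Ccna2 (48.4). The lowest were Cdk2 (4.18), Cdc6 (4.27) and Espl1 (4.65). Bulk RNA cannot tell fewer cells of a type from less RNA per cell.

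The first question was whether loss of Mir146 changed the expression of these genes in the E14 cortex. None of the 40 was called by limma with Benjamini-Hochberg adjustment over 18350 genes at a threshold of 0.05, and none had an unadjusted p under 0.05. The voom alternative called 0 as well. Across all genes 0.0490% were called, and 531 of 18350 had an unadjusted p under 0.05. The adjusted p was 1.00 for all 40 genes. The log2 fold change, KO minus WT, lay below 0 for 39 of 40 genes, with a median of -0.11 against 0.01 over all genes tested. That median was 0.0019 with sex as a covariate and 0.0106 with the replicate block. The KO and WT ranges overlapped for all 40, while they did not for 1.16% of all genes tested.

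Mki67 encodes the Ki-67 antigen that coats mitotic chromosomes, and it had the highest level of the set. It was at 1763, 1826, 1833, 989 and 1108 in KO libraries 1 to 5, and at 1423, 1599, 1508 and 1780 in WT libraries 1 to 4. KO 2 and KO 3 lay above the highest WT library, KO 1 just below it, and KO 4 and KO 5 below the lowest. The difference was -0.11 (SE 0.19, 95% interval -0.54 to 0.31). Top2a, the topoisomerase that untangles replicated chromosomes, was at 559, 616, 578, 331 and 337 in KO and at 442, 539, 514 and 569 in WT, with a difference of -0.14 (SE 0.20). KO 4 and KO 5 were again below every WT library.

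Among the G1/S genes, Ccnd1 encodes cyclin D1, which couples growth signals to entry into the cycle. Ccnd1 was at 111, 93.0, 124, 53.8 and 52.7 in KO and at 67.9, 98.3, 127 and 101 in WT. Its difference of -0.23 (SE 0.28) was the lowest of the 40. Ccne2, an E-type cyclin, differed by -0.04 (SE 0.12). Cdk2, the kinase that binds cyclins E and A, had the only value above 0, at 0.01 (SE 0.23).

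All 10 genes of replication origins and forks lay below 0, from -0.19 for Cdc45, a part of the active helicase, to -0.01 for the loading factor Cdc6. Pcna, the sliding clamp of the replicative polymerases, was at 211, 224, 235, 130 and 137 in KO and at 161, 211, 173 and 214 in WT. The difference for Pcna was -0.05 (SE 0.19). The helicase subunits Mcm7 and Mcm6 differed by -0.02 (SE 0.17) and -0.07 (SE 0.19). In nucleotide synthesis, Rrm2, the small subunit of ribonucleotide reductase, was at 174, 166, 171, 79.9 and 90.3 in KO and at 114, 155, 151 and 160 in WT. Rrm2 differed by -0.16 (SE 0.25), and Tyms, thymidylate synthase, by -0.15 (SE 0.20).

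The 8 mitotic cyclins and kinases ranged from -0.19 for Aurkb, the kinase of the chromosomal passenger complex, to -0.01 for its partner Birc5. Ccna2, cyclin A2, was at 220, 236, 228, 131 and 135 in KO and at 156, 219, 190 and 225 in WT, with a difference of -0.09 (SE 0.20). Ccnb1, cyclin B1, and Cdk1, its kinase, differed by -0.18 (SE 0.24) and -0.02 (SE 0.22). The 6 spindle checkpoint and anaphase genes ranged from -0.16 for the checkpoint kinase Ttk to -0.09 for Ube2c, the ubiquitin-conjugating enzyme of the anaphase-promoting complex. Ube2c was at 109, 119, 147, 54.7 and 66.6 in KO and at 82.7, 108, 95.2 and 114 in WT. The checkpoint genes Bub1 and Bub1b differed by -0.10 (SE 0.21) and -0.13 (SE 0.23).

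The 8 kinetochore and spindle genes ranged from -0.20 for Hmmr, which helps to assemble the spindle, to -0.07 for Nusap1, which bundles microtubules. Cenpf, an outer kinetochore protein of late G2 and mitosis, was at 392, 421, 382, 236 and 233 in KO and at 306, 395, 353 and 393 in WT, with a difference of -0.16 (SE 0.19). The kinetochore motor Cenpe and the spindle assembly factor Tpx2 differed by -0.16 (SE 0.22) and -0.10 (SE 0.20). Again KO 4 and KO 5 held the lowest values of Cenpf.

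The libraries ranked alike across the set. KO 4 was among the 2 lowest of the 9 libraries for 40 of 40 genes and KO 5 for 39 of 40. WT 1 was the third lowest for 39. KO 4 lay below every WT library for 40 genes and KO 5 for 39, while KO 2 lay above every WT library for 36, KO 3 for 30 and KO 1 for 12. As a geometric mean ratio to the WT mean, the 5 KO libraries stood at 1.11, 1.21, 1.20, 0.633 and 0.668, and the 4 WT libraries at 0.818, 1.07, 0.993 and 1.15. The KO libraries thus fell on both sides of the WT libraries.

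**Figure D1:**
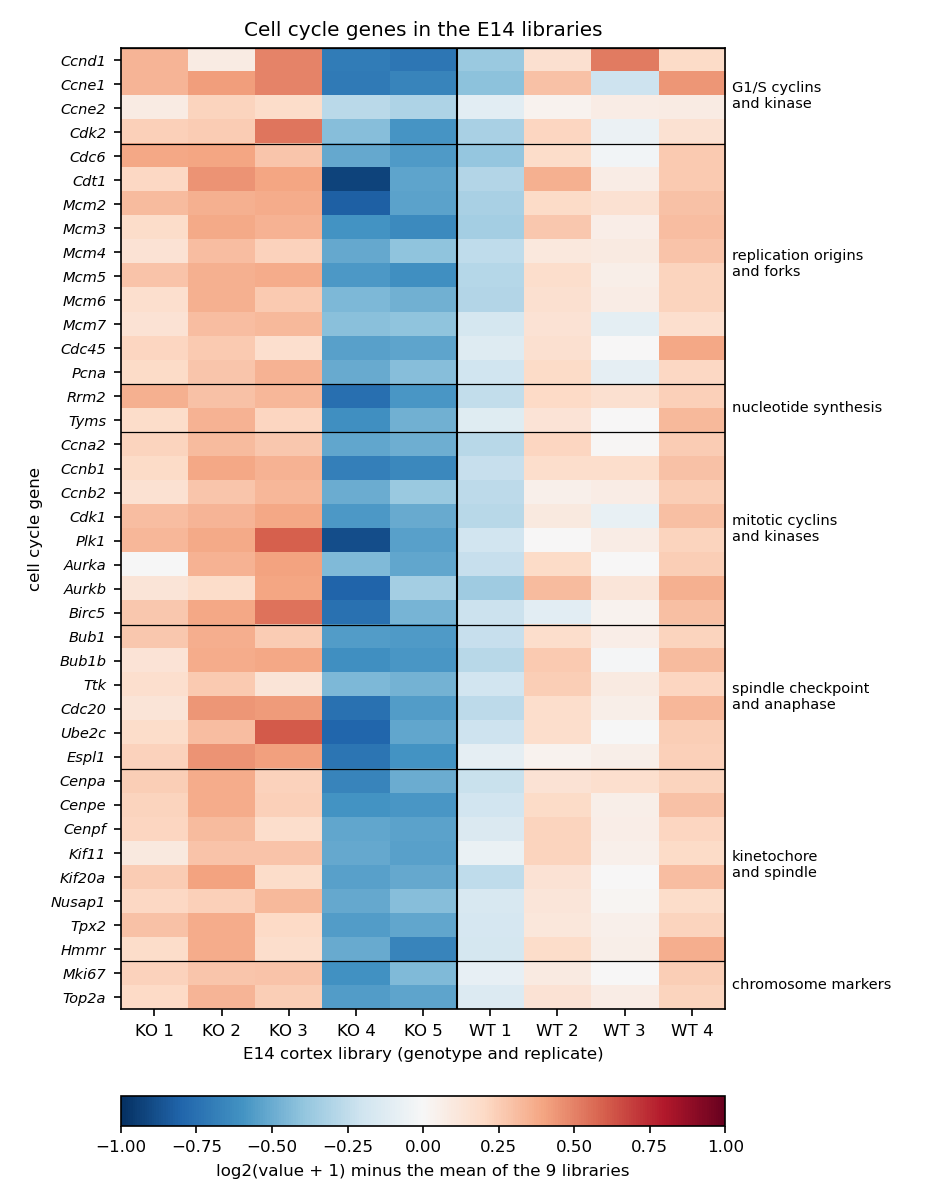
Level of each of the 40 cell cycle genes (rows, grouped by role) in the 5 KO and 4 WT libraries of E14 cortex (columns), as log2(value + 1) minus the mean of the 9 libraries; the colour scale runs from -1 to 1. KO 4 and KO 5 are low in nearly every row and WT 1 is paler but low in most, while KO 2 and KO 3 are high.

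The spread within a genotype was also larger among KO libraries. The coefficient of variation had a median of 30.7% over the 40 genes in KO and 14.98% in WT, and was higher in KO for 40 of 40 genes. Over the 18557 genes with a mean of at least 1, the medians were 15.9% and 11.5%, and 71.4% of genes were more variable in KO. After each library's deviation from its group mean was taken, pairs of the 40 genes had a mean Pearson r of 0.96 (range 0.82 to 1.00, 780 pairs, 9 libraries), against 0.00 over all genes. These pairs share the same 9 libraries, and the value is a description. Genes of replication and of mitosis shifted alike, since their mean log2 deviations differed by no more than -0.04 to 0.04 in any library. At P30 and P60 the mean pairwise r was 0.07 and 0.05.

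Without KO 4 and KO 5, a choice made after the levels were seen, limma called 0 of the 40 genes. The median log2 fold change was then 0.23, 40 of 40 lay above 0 and 16 had an unadjusted p under 0.05. KO 4 and KO 5 were the lowest libraries in nearly all of these same genes, so leaving them out raises the KO means by construction. The 40 genes also vary together, so the 16 are not separate results and nothing is read from these counts. Leaving out 1 library at a time gave 0 called genes in each of the 9 fits and a median between -0.21 and 0.03.

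Markers of the cell types in the E14 cortex moved with the same libraries. Summed over 10 radial glia markers, KO libraries ran from 1279 to 2145.1 and WT libraries from 1641.5 to 1976.5. The mean log2 deviation of these markers was 0.10, 0.18, 0.33, -0.35 and -0.55 in KO and -0.14, 0.16, 0.05 and 0.21 in WT. For 8 intermediate progenitor markers it was 0.10, 0.25, 0.33, -0.27 and -0.34 in KO and -0.23, 0.15, -0.10 and 0.11 in WT. Both progenitor lists were low in KO 4, KO 5 and WT 1, as the cell cycle genes were. Newborn neuron markers went the other way, at -0.10, -0.10, -0.09, 0.43 and 0.48 in KO and 0.08, -0.18, -0.30 and -0.22 in WT, with sums of 5828.8 to 8363.1 in KO and 5550 to 6955.8 in WT. Between genotypes 0 of 10 radial glia markers lay above 0, and 9 of 10 newborn neuron markers did, with a median of 0.30, 3 at an unadjusted p under 0.05 and none called by limma. Of 10 thalamus and hypothalamus markers 1 was called lower in KO, with a median of -1.01 and sums of 300.98 to 921.45 in KO and 741.1 to 1101.1 in WT. No marker of these lists was at 0 in either genotype, and the part of cell makeup or dissection in the levels of the 40 genes was not tested.

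**Figure D2:**
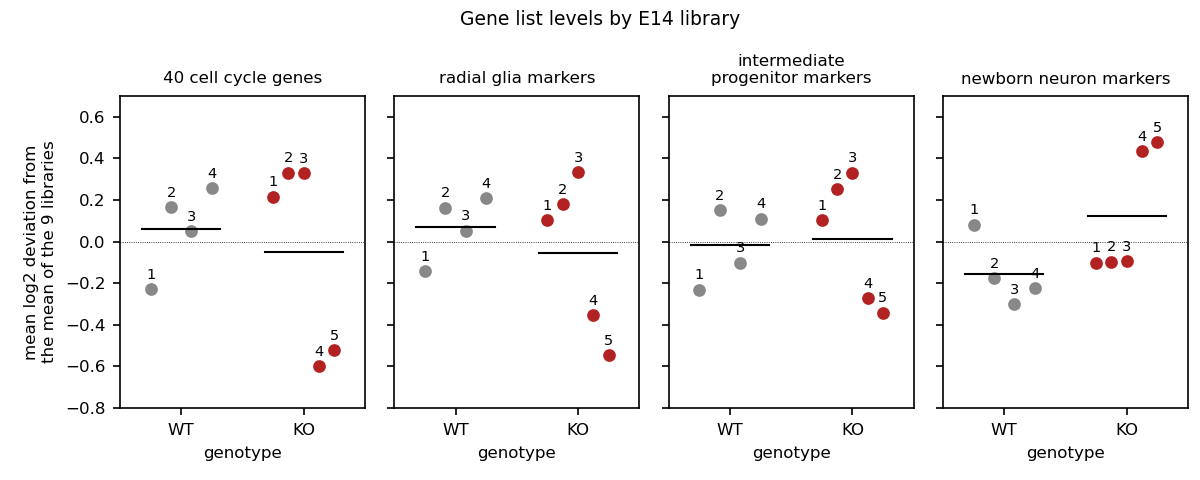
Mean log2 deviation from the mean of the 9 E14 libraries (vertical axis) for the 40 cell cycle genes and 3 marker lists, with 1 point per library numbered by replicate and a line at each genotype's mean. KO 4 and KO 5 lie below the WT libraries in the cell cycle and radial glia lists and above them in the newborn neuron list.

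Other genes of the pathway were not called either. Of 24 other replication genes 5 lay above 0 (median -0.05), of 30 other mitosis genes 0 did (median -0.12), of 23 activators and transcription factors 6 (median -0.07), and of 21 tested inhibitors 6 (median -0.04). No gene of the 4 lists was called by limma at E14. Their most abundant genes included Rrm1 (-0.14), the large subunit of ribonucleotide reductase, the condensin subunit Smc4 (-0.14), the D-type cyclin Ccnd2 (-0.10) and the retinoblastoma gene Rb1 (0.03). Cdkn1b, which encodes the CDK inhibitor p27, had the only unadjusted p under 0.05, at 0.16 (SE 0.06, adjusted p 1.00 by limma). Of the inhibitors, Btg2 and Gadd45g are also on the intermediate progenitor list. Pttg1, which encodes the separase inhibitor securin and lies 45.8 kb from Mir146 on chromosome 11, was at 21.98, 23.34, 29.15, 16.87 and 15.47 in KO and at 2.88, 2.86, 4.19 and 5.01 in WT. It was higher in KO by 2.23 (log2, SE 0.20, adjusted p 0.00101 by limma), and its ranges did not overlap. Its 2 lowest KO values were again those of KO 4 and KO 5.

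The mature product of Mir146, miR-146a-5p, lies at chr11:43374435-43374456 on the minus strand (GRCm38.p6, RefSeq). It is shown with its seed, bases 2 to 8, in capitals, because a target site pairs with these letters.
miR-146a-5p: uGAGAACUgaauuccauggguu

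A match to the seed was searched in annotated 3′ UTRs (GENCODE, GRCm38), either to bases 2 to 8 or to bases 2 to 7 followed by an A. It was found in 4 of the 40 genes (10%), against 18.1% of 21037 genes with a 3′ UTR and 21.2% of those tested at E14. The median 3′ UTR was 721 bases long in the 40 genes and 960 over all. The 5 sites follow with the matching letters in capitals, at chr11:117853936-117853957 (plus strand), chr3:36565488-36565509 (minus), chr10:69336412-69336433 (minus), chr10:69335729-69335750 (minus) and chr2:164778698-164778719 (plus).
Birc5: attttaaattaAGTTCTCtaat
Ccna2: gcttagttagcAGTTCTCttct
Cdk1, first site: cgctaagggatgGTTCTCAacc
Cdk1, second site: cactaggcaggAGTTCTCAacc
Ube2c: ttgcctcagacAGTTCTCAgag

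A seed match is a description of letters and not a shown target. The 4 genes that hold one differed between KO and WT at E14 by -0.01 (Birc5), -0.09 (Ccna2), -0.02 (Cdk1) and -0.09 (Ube2c) on the log2 scale. None was called.

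The levels were next set side by side across ages in WT cortex. The tables were normalised separately and the E14 samples are whole cortex while the P30 samples are frontal cortex, so no test was made and age and region cannot be told apart. In CPM of the recovered reads, 39 of 40 genes lay higher in every E14 library than in every P30 library, as did 46.8% of the 20435 genes with a mean of at least 1 at either age. The ratio of the means had a median of 41.7 over the 40 genes, against 1.30 over the same 20435 genes. It exceeded 10 for 36 of the 40 genes and for 3.82% of all genes, and it exceeded 50 for 16 and for 1.05% of all genes. Against P60 frontal cortex the median ratio was 40.4.

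The size of the ratio differed by role. It had a median of 3.51 for the G1/S genes, 27.2 for origins and forks, 47.8 for nucleotide synthesis, 48.0 for mitotic cyclins and kinases, 65.0 for kinetochore and spindle, 116 for the spindle checkpoint and 181 for the chromosome markers. The spindle checkpoint median rests on Bub1, Ttk, Cdc20 and Ube2c, which had 8 to 17 reads each at P30. In the same role Bub1b and Espl1, with 55 and 25 reads, had ratios of 37.9 and 41.8. Mki67 went from 1590 ± 162 (SD, n = 4) at E14 to 9.71 ± 1.96 (SD, n = 4) at P30, a ratio of 164. Top2a went from 520 ± 57.6 to 2.64 ± 0.974, a ratio of 197. The kinetochore gene Cenpf went from 365 ± 44.1 to 3.53 ± 0.636, a ratio of 103.

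Several mitotic genes were close to the limit of detection at P30. Ccnb1 had 8 reads over the 4 WT frontal cortex libraries, Cdk1 had 6 and Bub1 had 11, so their ratios of 263, 253 and 200 rest on few reads. The same holds for Ube2c (17 reads, ratio 155), Ttk (8 reads, ratio 151) and Cdc20 (16 reads, ratio 81.3). The smallest ratio was that of Ccne1, cyclin E1, which was at 13.7 ± 4.10 at E14 and 11.5 ± 1.95 at P30, the only gene whose ranges overlapped. Its ratio of 1.196 became 0.985 when all libraries were scaled together by trimmed means. The next smallest ratios were those of Ccnd1 (99.2 to 28.6, ratio 3.48), Ccne2 (36.3 to 10.2, ratio 3.54) and Pcna (191 to 24.0, ratio 7.97).

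**Figure D3:**
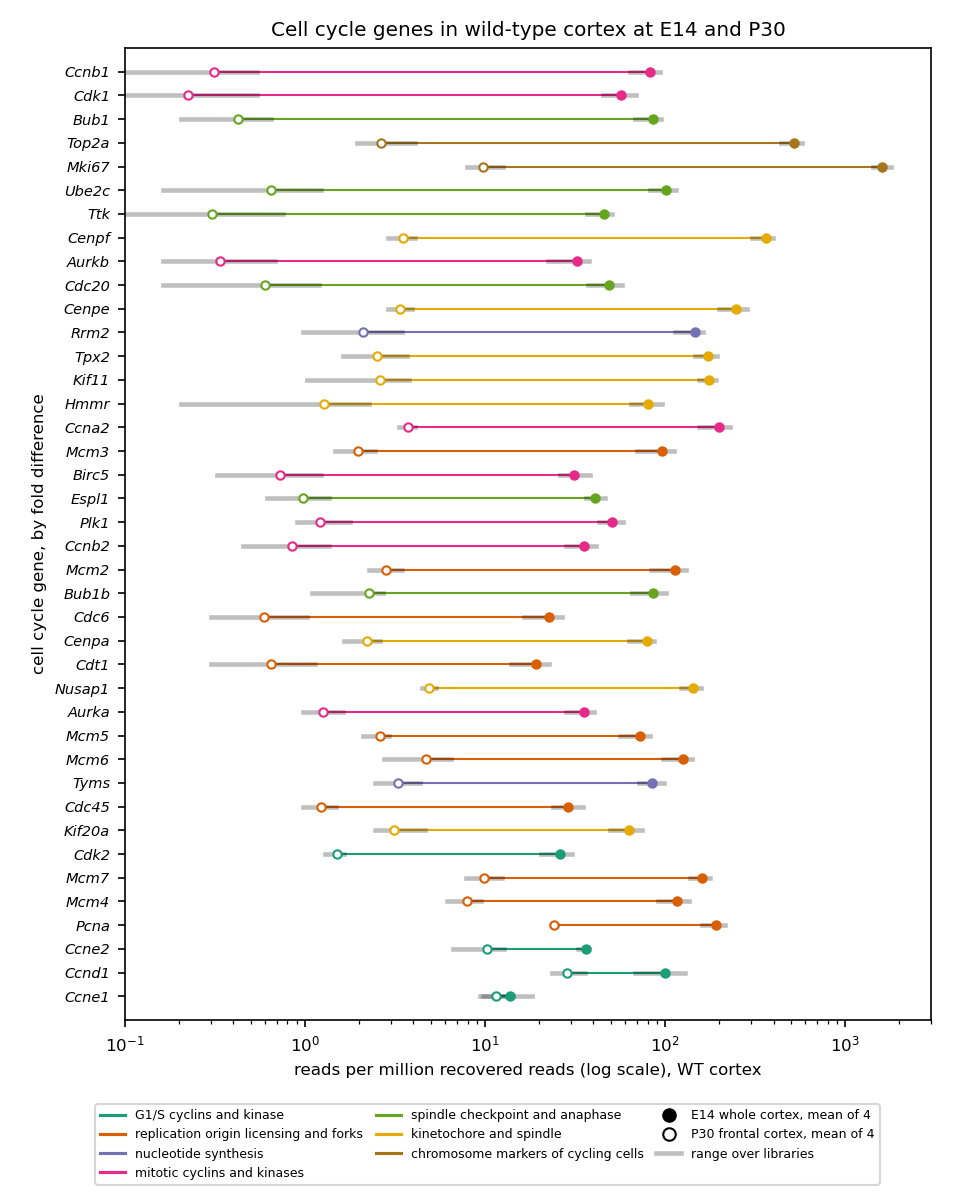
CPM of the recovered reads on a log scale (horizontal axis) of the 40 cell cycle genes in WT cortex, with filled points for the mean of 4 E14 whole cortex libraries, open points for the mean of 4 P30 frontal cortex libraries and grey bars for the range over libraries; bars that reach a library at 0 run to the left edge. Ccnb1 and Cdk1 at the top differ by 263-fold and 253-fold, and Ccne1 at the bottom overlaps between the ages.

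Promoter letters were examined because the genes moved together between the ages. RefSeq promoters (GRCm38.p6, 250 bases before to 50 after the start) were found for 33 of the 40 genes, as 34 sequences. Those of Ccnd1, Ccne2, Mcm4, Ccna2, Aurkb, Kif20a and Tpx2 are not analysed here. Both strands were searched for the cell cycle homology region (CHR, TTTGAA), the CCAAT box (CCAAT), and E2F sites (TTTCCCGC, TTTCGCGC, TTTGCCGC or TTTGGCGC). Matches of different motifs were counted apart even where they overlapped.

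A CHR was in 17 of the 34 promoters (50%), against 17.9% of all 32851 promoters of the same length. CCAAT was in 28 (82.4%) against 37.4%, and an E2F site in 8 (23.5%) against 2.27%. A CHR together with CCAAT was in 17 (50%) against 6.95%. Matches were unevenly spread over the roles. Of the members with a promoter sequence, a CHR was in 5 of 6 spindle checkpoint genes, 4 of 6 kinetochore and spindle genes, 4 of 6 mitotic cyclins and kinases, 2 of 2 chromosome markers and 2 of 9 genes of origins and forks. An E2F site was in 6 of the 9 genes of origins and forks, and in none of the spindle checkpoint, kinetochore and chromosome marker genes. The E14 to P30 ratio had a median of 62.9 over the 17 genes with a CHR of 27.9 over the 7 with an E2F site and no CHR, and of 42.9 over the 9 with neither. Motif and role go together, so these medians are not separate from those by role.

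The promoters of Top2a, Mki67, Mcm6 and Cdk1 are shown with the matching letters of all 3 motifs in capitals, on the strand of the gene. Top2a and Mki67, the abundant markers of cycling cells, hold a CHR and CCAAT. Mcm6 holds E2F sites and CCAAT without a CHR, and Cdk1 holds all 3. They lie at chr11:99024140-99024439, chr7:135716330-135716629, chr1:128359656-128359955 and chr10:69352863-69353162, all on the minus strand.
Top2a: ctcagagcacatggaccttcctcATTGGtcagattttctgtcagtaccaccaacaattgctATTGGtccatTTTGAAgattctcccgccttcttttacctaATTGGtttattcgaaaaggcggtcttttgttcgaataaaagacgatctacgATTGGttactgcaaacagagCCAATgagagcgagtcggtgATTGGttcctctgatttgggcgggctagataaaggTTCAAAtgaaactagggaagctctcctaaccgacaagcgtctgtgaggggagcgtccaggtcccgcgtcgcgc
Mki67: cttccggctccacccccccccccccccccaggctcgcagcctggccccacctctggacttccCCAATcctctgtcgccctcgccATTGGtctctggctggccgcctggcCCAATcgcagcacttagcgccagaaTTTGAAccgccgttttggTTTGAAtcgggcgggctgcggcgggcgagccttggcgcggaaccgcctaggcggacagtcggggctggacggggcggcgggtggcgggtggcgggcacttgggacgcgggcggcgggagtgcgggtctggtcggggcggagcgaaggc
Mcm6: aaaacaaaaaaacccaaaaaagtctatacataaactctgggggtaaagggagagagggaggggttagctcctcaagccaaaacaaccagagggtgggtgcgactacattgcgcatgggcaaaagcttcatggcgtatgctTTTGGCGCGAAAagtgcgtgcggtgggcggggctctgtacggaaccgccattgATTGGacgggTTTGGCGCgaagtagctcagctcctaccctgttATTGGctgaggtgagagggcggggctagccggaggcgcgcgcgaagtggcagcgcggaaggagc
Cdk1: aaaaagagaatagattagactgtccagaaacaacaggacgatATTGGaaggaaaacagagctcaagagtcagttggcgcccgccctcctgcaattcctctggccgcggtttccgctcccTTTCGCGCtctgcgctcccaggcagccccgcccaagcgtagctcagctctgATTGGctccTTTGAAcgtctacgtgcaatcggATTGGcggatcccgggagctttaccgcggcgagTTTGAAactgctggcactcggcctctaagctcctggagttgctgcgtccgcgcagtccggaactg

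In the first of these, the CHR nearest to the start begins at base -23, and CCAAT occurs at 6 places. In the Mcm6 promoter E2F matches begin at -110, -106 and -47, the first pair on opposite strands and overlapping. In the Cdk1 promoter a CHR begins at -15 and an E2F site at -131. Over the 34 promoters, 15 of 22 CHR matches (68.2%) began within 60 bases of the start, against 28.2% of 6737 matches in all promoters. Neither a CHR, nor CCAAT, nor an E2F site was found in the windows of Birc5, Ccne1, Nusap1 and Tyms, which says only that these letters are not there.

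After birth the KO was compared with WT within each region. The filter on low counts left 30 of the 40 genes to test at P30 and 28 at P60. Cdc6, Cdt1, Ccnb1, Cdk1, Aurkb, Birc5, Bub1, Ttk, Cdc20 and Ube2c were not tested at either age, and Ccnb2 and Hmmr not at P60. Limma called none of the tested genes in any of the 6 comparisons, where 0.0263% of all genes were called in P30 amygdala, 0.0158% in P30 frontal cortex, 0.0316% in P30 hippocampus, 0.0208% in P60 amygdala, 0.0312% in P60 frontal cortex and 0.0208% in P60 hippocampus. The voom alternative called 0 in each. An unadjusted p under 0.05 was reached by 3, 0 and 0 genes at P30 and by 2, 1 and 2 at P60, in the same order of regions. Among all genes tested it was reached by 1864, 371 and 1812 of 18976 at P30. At P60 these were 783, 431 and 392 of 19239, and nothing is read from the counts of cell cycle genes. The median log2 fold changes were -0.09, 0.05 and -0.05 at P30, and 0.03, -0.07 and 0.04 at P60.

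In the P30 amygdala the KO values of Mki67 were 11.7, 6.89, 8.14 and 13.6, and the WT values 10.84, 12.95, 17.21 and 13.33. The ranges overlapped, and the difference was -0.42 (log2, SE 0.18, adjusted p 0.448 by limma). Top2a was at 1.24, 1.75, 1.00 and 1.64 in KO and at 3.38, 2.16, 2.58 and 1.77 in WT. Its ranges did not overlap, by a margin smaller than the spread in either group, and its difference of -0.52 (SE 0.20, adjusted p 0.392) was the lowest of the 30 genes. Cenpf differed by -0.34 (SE 0.15, adjusted p 0.467), also without overlap. In frontal cortex the same genes lay above 0, with Top2a at 0.33, Mki67 at 0.33 and Cenpf at 0.14, and Top2a had the highest value of the 30. The test of the difference between amygdala and frontal cortex gave -0.85 for Top2a (SE 0.29), -0.75 for Mki67 (SE 0.26) and -0.48 for Cenpf (SE 0.22), each with an adjusted p of 0.999. None of the 40 genes was called in any of the 6 tests of a difference between regions, where 0% of all genes were.

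In P30 amygdala, 6 of the 40 genes (Rrm2, Plk1, Cdc20, Cenpf, Kif20a and Top2a) had all KO values below all WT values. All but Cdc20 were tested, and among all genes tested there the share with KO below WT was 2.52%. The other counts and shares take either direction. In P30 hippocampus 1 of 30 tested genes did not overlap, where 3.15% of all genes tested did not. In P30 frontal cortex 0 of 30 did not, where the share was 2.36%. At P60 the counts were 0 of 28 tested genes in amygdala, 2 in frontal cortex and 6 in hippocampus, beside shares of 5.04%, 5.26% and 11.7% of all genes tested. With the untested genes included, the counts were 2 in P30 hippocampus, and 1, 3 and 6 in the P60 regions. The P60 hippocampus has 2 KO and 3 WT libraries, which separate most easily, and nothing is read from its count. The lowest and highest differences in the other comparisons were Plk1 (-0.33) and Top2a in P30 frontal cortex, and Hmmr (-0.36) and Cenpa (0.41) in P30 hippocampus. At P60 they were Cenpe (-0.54) and Bub1b (0.58) in amygdala, Rrm2 (-0.60) and Cdc45 (0.27) in frontal cortex, and Tpx2 (-0.77) and Cdk2 (0.71) in hippocampus. Tpx2 was at 1.24 and 0.92 in the 2 KO hippocampi and at 2.05, 3.02 and 2.58 in the WT hippocampi at P60. At P30 it was at 2.39, 3.58, 2.74 and 3.33 in KO and at 3.93, 4.15, 3.63 and 3.42 in WT. Securin again differed, in the opposite direction to E14. Pttg1 was at 0.875 ± 0.121 (SD, n = 4) in KO and 8.79 ± 1.02 (SD, n = 4) in WT frontal cortex at P30, and it was lower in KO in all 6 comparisons, by -2.38 to -2.94 on the log2 scale (highest adjusted p 1.36e-05 by limma).

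Regions were then compared with KO and WT averaged at equal weight. The 3 comparisons of an age share libraries, so they are not independent of each other. At P30, hippocampus exceeded frontal cortex in 13 of 30 tested genes and was lower in 1, where 19.6% of all genes were higher and 23.7% lower. The median difference of the 30 genes was 0.28, against -0.01 over all genes. Plk1, which is among the 13, passed the filter on low counts only through hippocampal libraries, so its difference is partly fixed by that filter. The same holds for Cdc45 and Espl1, and Ccnb2 passed only through amygdala and hippocampal libraries. The median of 0.28 includes these genes and is partly fixed in the same way. At P60, 6 of 28 were higher and 2 lower, where 15.8% and 17.0% of all genes were. The median of the 28 was 0.14, and it includes Espl1, which passed the filter at P60 only through hippocampal libraries.

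The largest differences were those of Mcm6 and Mki67. At P30 Mki67 was at 33.3, 32.3, 23.7 and 27.5 in KO hippocampus and at 25.71, 33.31, 39.76 and 24.96 in WT hippocampus. In frontal cortex it was at 11.2, 11.9, 11.7 and 15.1 in KO and at 9.59, 12.52, 9 and 7.90 in WT. Every hippocampal library lay above every frontal cortex library, and the difference was 1.36 (log2, SE 0.13, adjusted p 4.06e-09 by limma). Mcm6 had a mean of 14.4 ± 3.02 in hippocampus, 7.07 ± 1.34 in amygdala and 4.74 ± 1.06 in frontal cortex (SD, n = 8 libraries each). Its hippocampal libraries lay above all others without overlap, and it differed from frontal cortex by 1.43 (SE 0.13, adjusted p 2.16e-09).

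In the same comparison Tyms was higher by 0.98 (SE 0.14), from a mean of 2.98 in frontal cortex to 6.81 in hippocampus, again without overlap. Of the origin and fork genes, Mcm3 (0.55), Pcna (0.38), Mcm4 (0.31) and Mcm7 (0.28) were higher as well. Of the mitotic genes, Cenpf (0.66), Top2a (0.53), Bub1b (0.50), Cenpe (0.42), the centrosomal kinase Aurka (0.41) and Plk1 (0.38) were higher. Ccne2 was lower by -0.43 (SE 0.12). The Bub1b, Plk1 and Mcm7 calls were the least stable, kept in 13, 9 and 11 of 25 settings. The most abundant G1/S gene, Ccnd1, was not called, with means of 26.7 in hippocampus and 29.9 in frontal cortex.

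**Figure D4:**
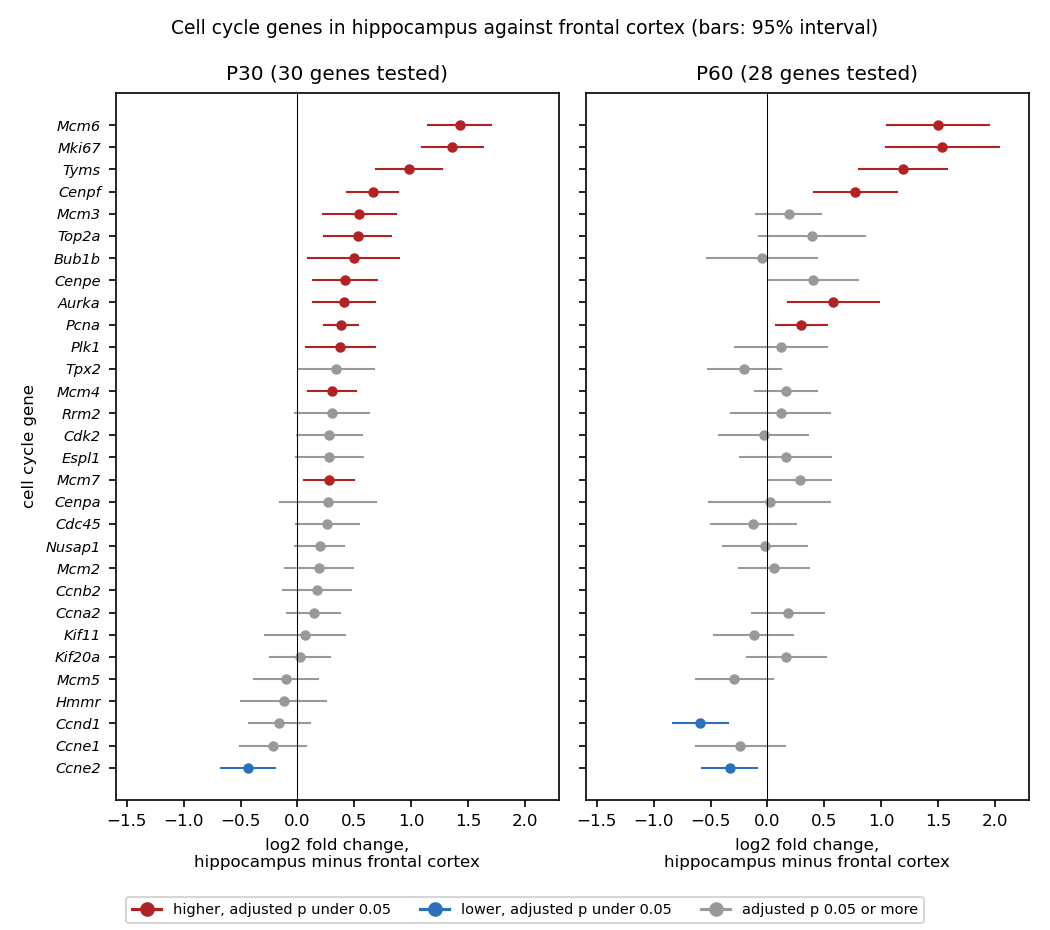
Log2 fold change, hippocampus minus frontal cortex (horizontal axis), of the cell cycle genes tested at P30 (30 genes) and P60 (28 genes), with bars for the 95% interval and colours for calls by limma at an adjusted p under 0.05. Mcm6, Mki67 and Tyms lead at both ages, and Ccne2 is lower at both.

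The same genes led at P60. Mki67 was at 13.98 and 23.08 in KO hippocampus and at 13.21, 27.71 and 21.16 in WT hippocampus, against 2.89 to 10.42 in the 7 frontal cortex libraries. Its difference was 1.54 (SE 0.24, adjusted p 8.78e-05 by limma). Mcm6 differed by 1.501 (SE 0.21), Tyms by 1.19 (SE 0.19), Cenpf by 0.77 (SE 0.17), Aurka by 0.58 (SE 0.19) and Pcna by 0.30 (SE 0.11). Ccnd1 and Ccne2 were lower, by -0.59 (SE 0.11) and -0.33 (SE 0.12). Top2a, at 0.39, was not called at this age. The count of 8 called genes fell to 5 without WT frontal cortex 3, without KO hippocampus 2 and without WT hippocampus 2, each left out alone. The Aurka call was kept in 15 of 20 settings, and those of Pcna and Ccne2 in 10 each. Ccne2 was among those lost with the replicate block.

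The hippocampal libraries at P60 were not alike. KO 1 and WT 1 had the lowest values of Mki67 (13.98 and 13.21) and of Mcm6 (8.70 and 7.78), while the other 3 libraries held Mcm6 at 16.86 to 21.39. Their sums over 8 hippocampal identity genes were 2008.2 and 2150.2, against 4249.9 to 4866.6 in the other 3. Their sums over 10 genes of adult neurogenesis were 243.7 and 228.91, against 268.36 to 312.35. The part of dissection in these levels was not tested.

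**Figure D5:**
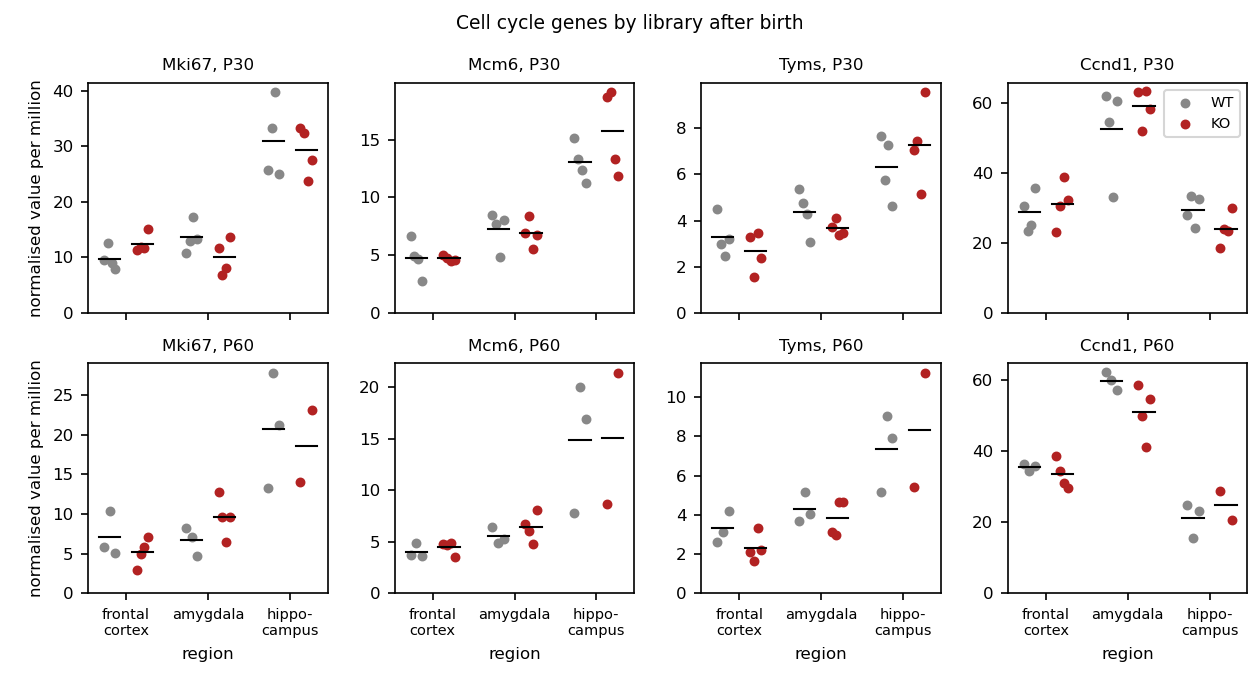
Normalised value (vertical axis) of Mki67, Mcm6, Tyms and Ccnd1 by region at P30 (top) and P60 (bottom), with 1 point per library, grey for WT, red for KO, and a line at each group's mean. The hippocampus is highest for Mki67, Mcm6 and Tyms and the amygdala for Ccnd1, and the KO and WT ranges overlap in each region.

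The amygdala had its own pattern, with a high Ccnd1. Ccnd1 had a mean of 55.9 ± 10.1 in amygdala, 29.9 ± 5.68 in frontal cortex and 26.7 ± 5.11 in hippocampus at P30 (SD, n = 8 libraries each), and 54.9 ± 7.27, 34.4 ± 3.10 and 22.6 ± 4.93 at P60. The amygdala exceeded frontal cortex by 0.88 (SE 0.13, adjusted p 1.39e-05) at P30 and by 0.66 (SE 0.10, adjusted p 7.96e-05) at P60, both by limma. At P60 the 3 regions did not overlap. At P30 WT amygdala 3, with 33.05, lay within the frontal cortex range.

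In all, amygdala was higher than frontal cortex in 3 of 30 genes at P30 and lower in 5, where 23.4% of all genes were higher and 13.9% lower. The 3 were Ccnd1, Mcm6 (0.50) and Mcm4 (0.39). The 5 were the spindle gene Hmmr (-0.54), the mitotic kinesin Kif11 (-0.53), Mcm5 (-0.53), Top2a (-0.48) and Rrm2 (-0.47). At P60, Ccnd1 and Cenpf (0.56) were higher and Kif11 (-0.44) lower among 28 genes, where 20.3% and 11.0% of all genes were. The P60 count was 5 instead of 3 when only the amygdala and frontal cortex libraries were fitted, and also 5 without WT frontal cortex 3. It was as low as 2 with 1 library left out, since the Kif11 call was lost in 6 of 22 settings, each without 1 amygdala or frontal cortex library.

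Hippocampus exceeded amygdala in 14 of 30 genes at P30 and was lower in 3, where 15.3% and 28.8% of all genes were. The median was 0.36, against -0.07 over all genes. The highest were Mki67 (1.30), Top2a (1.01), Mcm6 (0.93), Cenpf (0.86), Rrm2 (0.77), Tyms (0.63), Kif11 (0.60) and Cenpa (0.52), the histone variant of centromeres. Mcm3 (0.46), Aurka (0.43), Cenpe (0.43), Mcm5 (0.43), the separase gene Espl1 (0.43) and Pcna (0.30) were the others. Espl1 passed the filter only through hippocampal libraries, as did Cdc45 and Plk1, which were not called here. The median of 0.36 includes these genes, so it is partly fixed by the filter. The 3 lower genes were Ccnd1 (-1.03), Ccne1 (-0.53) and Ccne2 (-0.30). At P60, Mki67 (1.17), Mcm6 (1.10), Top2a (0.86), Tyms (0.77) and Aurka (0.65) were higher, and Ccnd1 (-1.25) and Ccne1 (-0.52) lower, where 9.39% and 19.6% of all genes were. Every gene called lower in hippocampus, at either age and against either region, was Ccnd1, Ccne1 or Ccne2. Against amygdala, the call of Ccne2 at P30 was kept in 13 of 25 settings, that of Cenpa at P30 in 15 of 25, and that of Ccne1 at P60 in 9 of 20, each lost among others without a filter on low counts.

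A fit without WT hippocampus 3 and WT amygdala 3 was chosen after their markers were seen. It left 10 genes higher and 1 lower in hippocampus against frontal cortex at P30. In either direction, 9 were called in amygdala against frontal cortex and 18 in hippocampus against amygdala. With all libraries, the shares of all genes called higher and lower were 19.6% and 23.7%, 23.4% and 13.9%, and 15.3% and 28.8%, in that order. The shares in the fit without those libraries are not given here, so nothing is read from its counts. In the mean over all 40 genes, each hippocampal library at P30 (0.10 to 0.41 above the mean of the 24 libraries, log2) lay above each library of the other regions (at most 0.05). WT hippocampus 3 was the highest of them, and its hippocampal identity sum of 2786.5 was the lowest. Of 10 genes of adult neurogenesis, 8 were called higher and 1 lower in hippocampus against frontal cortex at P30 (median 1.08), and 7 higher and 2 lower at P60 (median 1.04). Their sums at P30 were 289.36 to 408.41 in KO and 279.23 to 346.72 in WT hippocampus, and 194.07 to 247.76 and 207.92 to 238.81 in frontal cortex. The amygdala sums, 323.16 to 346.72 in KO and 333.49 to 359.36 in WT, lay within the hippocampal range. None of these markers was at 0, and their part in the cell cycle levels was not tested.

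The rest of the pathway was mixed between these regions, where 19.6% of all genes were called higher and 23.7% lower at P30. In hippocampus against frontal cortex at P30, 4 of 19 other replication genes were higher and 2 lower, among them Orc1, a subunit of the origin recognition complex (0.77), and the ligase Lig1 (-0.29). Of 23 other mitosis genes, 5 were higher and 5 lower, among them the kinetochore gene Nuf2 (0.71) and the kinase Melk (-0.71). Of 21 activators and transcription factors, 7 were higher and 3 lower, from Ccnd2 (0.45) to E2f1 (-0.81). Of 19 inhibitors, 5 were higher and 6 lower, from Gadd45g (0.91) to Cdkn1a (-0.89), which encodes the CDK inhibitor p21. At P60 the same lists held 2 and 1 of 19, 3 and 3 of 21, 4 and 2 of 19, and 4 and 4 of 20 genes called higher and lower, where 15.8% and 17.0% of all genes were, so nothing particular to the pathway is read from these counts.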

How the data were processed

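Poly-A RNA of mouse brain was sequenced as stranded paired-end libraries, per the labels' protocols. The submitters' processing notes name the build mm9 and the tools DESeq, edgeR and limma, without roles. No aligner or counter is named in the labels or file headers. The authors deposited 1 table per age with values like CPM, written with decimal commas. Columns total 945861 to 1039135, and within a column every value is a whole multiple of 1 step (100% whole, tolerance 0.1 reads), so reads per library were recovered from the steps.

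The main test was limma 3.58.1 (R 4.3.3) with a mean-variance trend and robust fit on log2(value + 1), over all libraries of an age, with Benjamini-Hochberg adjustment over all genes tested and a threshold of 0.05. A log2 change on this scale understates changes of low genes. Tested genes reached the equivalent of 10 reads (scaled to median depth) in a number of libraries equal to the smallest group's size, and 15 reads in all. The test was also run on simulated counts drawn independently for each gene. The 40 genes vary together at E14, so that run does not measure the test for them. Levels across ages used CPM of the recovered reads. Motifs and seed matches were searched with Python 3.11.15 in RefSeq promoters (GRCm38.p6) and GENCODE 3′ UTRs (GRCm38).

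The 40 genes and all other lists were chosen with earlier results of these data known. Named in the text are all called members and the highest and lowest change. Of other pathway lists, all called genes are named only for hippocampus against frontal cortex at P30. At P60 some of the called genes are named, and at E14 some of those of highest mean, so these are a selection. Called genes of the marker lists are not named. Between KO and WT in P30 amygdala only the lowest change is named. The 3 of highest mean per role are all named at E14 only. After birth just some of them are, so the genes detailed between KO and WT there are a selection. Tpx2 at P30, and the lowest and highest transcript levels and age ratios, were named after their values were seen. Alternatives were voom, a sex covariate, a replicate block, pseudocounts 0.5 and 0.1, no filter, TMM scaling, the compared libraries alone and leaving out each library. In P60 amygdala the deviations of KO and WT libraries of the same number correlated at r 0.265, 0.21 and 0.321. In P60 frontal cortex the values were 0.224, 0.19 and 0.0307, and in P60 hippocampus 0.624 and 0.497 from only 2 pairs. At E14 and in each P30 region some pairs had an r below 0. Libraries of different number were not compared in this way, so whether the numbers mark pairs of KO and WT was not tested. Between regions of 1 genotype at P60, libraries of the same number correlated at 0.113 to 0.154 in WT and 0.0738 to 0.212 in KO. At P30 these values were 0.0015 to 0.187 in WT and -0.00474 to 0.183 in KO. With no comparison of different numbers, whether regions share animals was not tested either. The replicate block was fitted as an alternative.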

Additional observations from a re-analysis of the deposited data

Results flagged for a closer look

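Within groups of 4 or 5 libraries, 7 of 230 sets of values (3.04%) had 1 library far from the rest by Dixon's criterion, which chance meets in about 1 of 20 sets. The sets were the levels of 22 genes and the list means.

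KO frontal cortex 4 at P30 stood apart in 2 sets. Its Mki67 level of 15.1 lay above the 11.23 to 11.87 of the other 3 KO libraries, and its mean log2 level over all 40 genes, at -0.01327 from the table mean, was the highest of the group, against -0.111 to -0.101 in the others. Also at P30, Bub1b was low in WT frontal cortex 2, at 1.09 against 2.58 to 2.78, and Cenpa was high in KO hippocampus 3, at 5.49 against 3.03 to 3.05.

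At P60, Ccne2 was low in KO amygdala 4, at 8.43 against 9.95 to 9.98. Kif11 was low in KO amygdala 1, at 0.3 against 1.29 to 1.45. Mcm6 was low in KO frontal cortex 4, at 3.57 against 4.70 to 4.84. What set these libraries apart was not tested.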

How the results depend on the processing

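The count of cell cycle genes called between KO and WT was 0 under each alternative run, at each age and region, and no called gene reversed its direction. Leaving out each library in turn moved the median log2 fold change of the tested genes from -0.21 to 0.03 at E14, from -0.1791 to -0.0875 in P30 amygdala, from -0.0877 to 0.0567 in P30 hippocampus, from 0.0006 to 0.0858 in P60 amygdala, from -0.1036 to 0.1508 in P60 hippocampus, from -0.0036 to 0.0753 in P30 frontal cortex and from -0.1041 to 0.0009 in P60 frontal cortex. It moved the count between hippocampus and frontal cortex at P60 from 5 to 9, and that between amygdala and frontal cortex at P60 from 2 to 5. With the compared libraries alone the latter was 5. The median age ratio fell from 41.2 on the table scale to 34.3 with TMM over all libraries. The causes were not tested. Of the genes called between regions, 11 of 14, 6 of 8 and 14 of 17 were called in every setting at P30, and 5 of 8, 2 of 3 and 4 of 7 at P60, in the order hippocampus against frontal cortex, amygdala against frontal cortex and hippocampus against amygdala.

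With the replicate block, 0 genes were called between KO and WT, and 13, 9 and 17 at P30 and 7, 4 and 7 at P60 between regions in that order. Over all genes, the main fit called 8217, 7075 and 8367 of 18976 at P30 and 6308, 6033 and 5572 of 19239 at P60. The totals over all genes with the block are not given here, so nothing is read from its counts. The block lost Plk1 and Ccne2 at P30 and Ccne2 at P60, and the median was 0.0106 at E14 and 0.0006 in P60 amygdala. Alternatives with edgeR and DESeq2 were not run, and voom was the only count-based alternative, on the recovered reads. Low depth limits the mitotic genes after birth, and P60 hippocampus has 2 KO libraries.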

Other observations

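Other cell cycle genes called between hippocampus and frontal cortex are given by name. Over all genes 19.6% were called higher and 23.7% lower at P30, and 15.8% and 17.0% at P60, and nothing particular to the pathway is read from the number of calls. At P30, the replication genes Orc1 (0.77), Uhrf1 (0.49), Chaf1a (0.42) and Pole (0.39) were higher in hippocampus on the log2 scale, and Rfc5 (-0.28) and Lig1 (-0.29) lower. Of the mitosis genes, Nuf2 (0.71), Smc4 (0.54), Smc2 (0.52), Ckap2 (0.49) and Kif4 (0.47) were higher, and Melk (-0.71), Incenp (-0.67), Kif22 (-0.37), Kifc1 (-0.35) and Mad2l1 (-0.26) lower. Of the activators, Ccnd2 (0.45), Myc (0.43), E2f3 (0.40), Foxm1 (0.36), Cdk4 (0.35), Tfdp2 (0.26) and Tfdp1 (0.15) were higher, and E2f1 (-0.81), Cdc25b (-0.37) and Skp2 (-0.22) lower. Of the inhibitors, Gadd45g (0.91), Trp53 (0.44), Rb1 (0.40), Cdkn1b (0.23) and E2f4 (0.16) were higher, and Cdkn1a (-0.89), Gadd45a (-0.80), Pkmyt1 (-0.40), Wee1 (-0.39), E2f6 (-0.28) and Cdkn2d (-0.21) lower.

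At P60 the calls included Orc1 at 0.50, Nuf2 at 0.83, Smc4 at 0.50, Cdk4 at 0.38, Gadd45g at 0.69, Rb1 at 0.37, E2f1 at -0.84, Melk at -1.13, Cdkn1a at -0.83 and Gadd45a at -0.78. All calls are by limma at an adjusted p under 0.05 over all genes tested.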
